A study of Mus musculus with 2 samples.

Results

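Kinesins are motor proteins that use ATP to move along microtubules or to take them apart. One set works in dividing cells, where it builds the spindle, moves chromosomes and separates the daughter cells, and its genes are transcribed mainly late in the cell cycle. Another set carries vesicles, mitochondria and protein complexes through the cytoplasm of cells whether or not they divide. A smaller set serves the cilium, the antenna-like extension of many resting cells. The genes described here are all genes annotated as protein coding in GENCODE release M21 whose symbol is Kif with a number and at most a letter from a to c, or Kifc with a single digit. They numbered 41 of the 55536 genes in the deposited table, which holds 22028 protein-coding genes. The symbol rule used no measured value. Functional classes were assigned from general knowledge of each motor as 12 mitotic, 17 transport, 5 cilium, 3 depolymerase and 4 other kinesins.

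Expression was measured by RNA sequencing in 2 mammary tumor libraries from MMTV-PyVT mice, 1 from the vehicle group (dimethyl sulfoxide, DMSO) and 1 from the group given cyanidin-3-glucoside (C3G), a plant pigment of the anthocyanin family. In this strain the mouse mammary tumor virus promoter drives the polyoma virus middle T antigen in mammary epithelium, so both groups carry the transgene. Dosing began at the stage of ductal hyperplasia, and tumors were collected at a preset burden. Age, dose, and whether animals were pooled are not given in the sources used here. Recovered from the deposited values, the depth was 12192275 gene-assigned reads for DMSO and 16081110 for C3G. Pairs of values below are in the order DMSO, then C3G. Levels are in TPM, a length-corrected share of each library's transcripts that can be compared between genes.

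With 1 library per group there was no replicate check and no test between groups. Each interval given after a ratio is a 95% interval for counting error only, and a difference between the libraries cannot be told apart from a difference between individual tumors. In bulk tissue, fewer cells of a type and less RNA per cell cannot be told apart either. Log2 ratios are log2 of (C3G TPM + 1) over (DMSO TPM + 1), which understates the difference of low genes, and ratios without "log2" are plain ratios of TPM. The luminal epithelial keratin gene Krt8 stood at 1890 and 1420 TPM and the epithelial adhesion gene Epcam at 1484 and 1399 TPM, so both libraries carried epithelial RNA.

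The promoter sequences are shown first because the mitotic class shared letters in them that the symbol rule did not use. Many late cell cycle genes carry a cell cycle genes homology region (CHR), a short element near the start of transcription that is read by the MuvB complexes, often downstream of a CCAAT box bound by NF-Y. RefSeq promoter windows of 300 bases (250 before to 50 after the start, GRCm38.p6, a patch release of the assembly called mm10) were found for 32 of the 41 kinesins. The mitotic Kif20a had none, nor did the transport genes Kif5a, Kif5b, Kif13b, Kif21b, Kifc2 and Kifc3. Kif19a and Kif28 had none either. The CHR letters TTTGAA, searched on both strands, were present in 10 of 11 mitotic windows (90.9%), against 17.9% of all 32851 windows. Among the transport kinesins they were present in 1 of 13 windows (7.69%), which belong to 11 genes. CCAAT, also on both strands, was found in 7 of the 11 mitotic windows and 4 of the 13 transport windows, against 37.4% of all windows. Both were present, in any order and at any spacing, in 7 mitotic windows (63.6%), in 0 transport windows and in 6.95% of all windows. The pair was not confined to the mitotic class. It was also in 1 of 5 cilium windows (Kif27), 1 of 3 windows of the other kinesins (Kif26b) and 0 of 4 depolymerase windows. The E2F-like letters GCGGGAA were in 0 of the 11 mitotic windows and 0 of the 13 transport windows, against 4.60% of all.

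The CHR letters also lay close to the start: they fell wholly within 30 bases of it in 8 of 11 mitotic windows and 0 of 13 transport windows, against 2.90% of all windows. They did so too in 1 of 3 windows of the other kinesins, that of Kif26b, and in 0 cilium or depolymerase windows. The distance of 30 bases was chosen after the positions were seen. A match of letters is a description of the sequence, not evidence that a factor binds there. The 90 bases from 60 before to 30 after the start are given for the 8 mitotic kinesins with the letters near the start, 5′ to 3′ on the gene's strand. For contrast, the same stretch is given for Kif3a and Kif1c, a pair of abundant transport kinesins without CHR letters in their windows. Capitals mark CHR letters (TTTGAA or, on the other strand, TTCAAA) and CCAAT letters (CCAAT or ATTGG).
Kif11, chr19:37376322-37376411, plus strand: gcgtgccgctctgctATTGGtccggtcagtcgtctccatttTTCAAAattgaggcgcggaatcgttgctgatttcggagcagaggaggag
Kif15, chr9:122951021-122951110, plus strand: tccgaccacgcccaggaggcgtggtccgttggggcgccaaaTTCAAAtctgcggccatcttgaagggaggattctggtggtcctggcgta
Kif22, chr7:127042391-127042480, minus strand: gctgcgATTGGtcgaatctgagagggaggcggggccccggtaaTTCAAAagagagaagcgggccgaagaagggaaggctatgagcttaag
Kif4, chrX:100626005-100626094, plus strand: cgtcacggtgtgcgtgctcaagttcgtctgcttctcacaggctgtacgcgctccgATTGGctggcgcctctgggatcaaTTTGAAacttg
Kif18b, chr11:102925095-102925184, minus strand: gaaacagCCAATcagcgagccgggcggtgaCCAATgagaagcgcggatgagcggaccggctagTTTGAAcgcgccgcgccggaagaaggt
Kif23, chr9:61946770-61946859, minus strand: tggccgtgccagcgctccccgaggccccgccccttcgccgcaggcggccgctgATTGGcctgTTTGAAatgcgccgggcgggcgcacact
Kifc1, chr17:33890604-33890693, minus strand: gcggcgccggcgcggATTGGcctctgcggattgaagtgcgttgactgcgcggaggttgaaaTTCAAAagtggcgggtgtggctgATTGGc
Kif20b, chr19:34922298-34922387, plus strand: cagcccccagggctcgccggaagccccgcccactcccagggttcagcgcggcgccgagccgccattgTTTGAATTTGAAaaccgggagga
Kif3a, chr11:53567309-53567398, plus strand: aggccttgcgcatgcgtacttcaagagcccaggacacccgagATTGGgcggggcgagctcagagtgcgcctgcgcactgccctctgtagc
Kif1c, chr11:70700488-70700577, plus strand: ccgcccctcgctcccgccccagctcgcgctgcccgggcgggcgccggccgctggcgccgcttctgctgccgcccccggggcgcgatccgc

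In Kif11, Kif15 and Kif22 the CHR letters nearest the start ended 14, 14 and 12 bases before the start. In Kif18b, Kif23 and Kifc1 they began 4, 3 and 2 bases into the transcript, and in Kif4 20 bases into it. Kif20b carried TTTGAA in 2 adjoining copies that began 8 and 14 bases into the transcript. In Kif2c and Kif14 the letters lay farther upstream, beginning 103 and 228 bases before the start. In Kif14 that is upstream of its CCAAT letters, which began 92 bases before the start. Kif18a held neither CHR nor CCAAT letters in its window. The sole transport match was in 1 of the 2 windows of Kif1a, at 44 bases before that start.

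**Figure D1:**
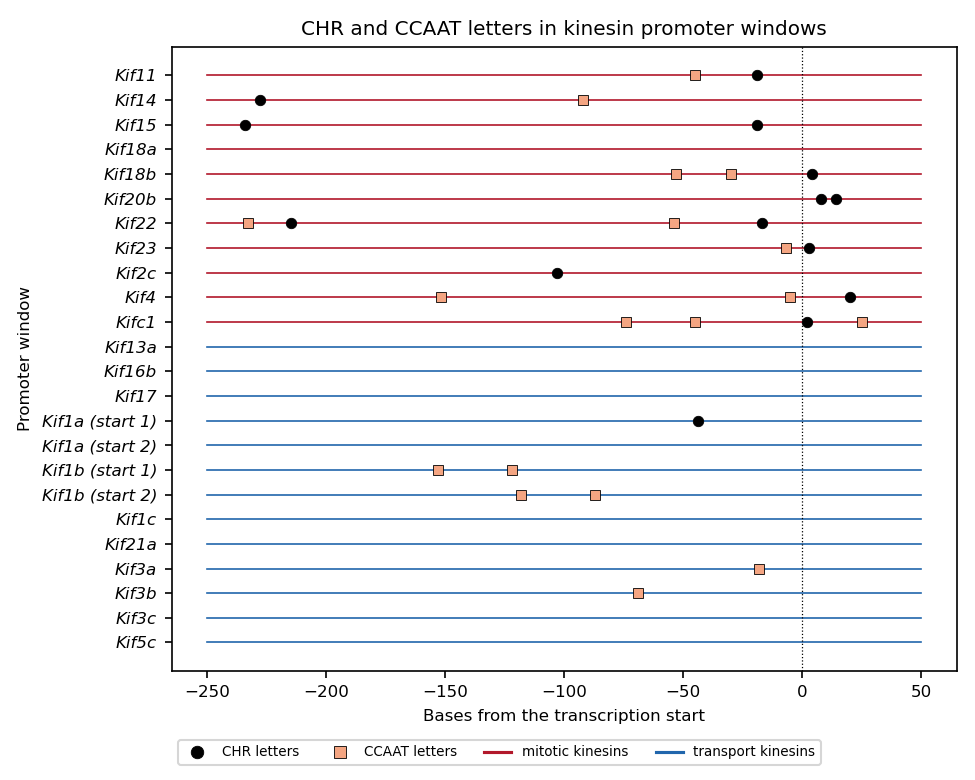
Positions of CHR letters (black circles) and CCAAT letters (orange squares) along each RefSeq promoter window of the mitotic (red) and transport (blue) kinesins; the x axis is bases from the transcription start, and each marker stands at the first base of a match. CHR letters appear in 10 of 11 mitotic windows, mostly near the start, and in 1 of 13 transport windows.

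Reads were found for 38 of the 41 kinesins. A TPM of at least 1 in either library was reached by 35, and the same 35 averaged at least 1 TPM, the minimum used for medians. All 12 mitotic and all 17 transport genes were among them. Kif2b, Kif6 and Kif12 had no read in either library, which allows at most 0.308, 0.115 and 0.203 TPM with DMSO, taking 3 reads as the limit that a count of 0 allows, and at most 0.243, 0.0908 and 0.160 TPM with C3G. Kif28 had 0 reads with DMSO and 1 with C3G.

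Summed over the 41 genes, kinesin transcripts came to 537 and 589 TPM. Transport kinesins made up most of this, 431 and 420 TPM or 80.3% and 71.4% of the kinesin total. The mitotic class held 82.1 and 141 TPM, or 15.3% and 23.9%. In both libraries the most abundant kinesin was Kif5b, the ubiquitous heavy chain of conventional kinesin, followed by Kif1c, a vesicle and mRNA carrier. These 2 genes alone held 39.2% of all kinesin TPM with DMSO and 33.2% with C3G. The mitotic gene with the highest level was Kif22 with DMSO and Kif11 with C3G, where Kif11 ranked 7th of the 41, up from 14th.

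**Figure D2:**
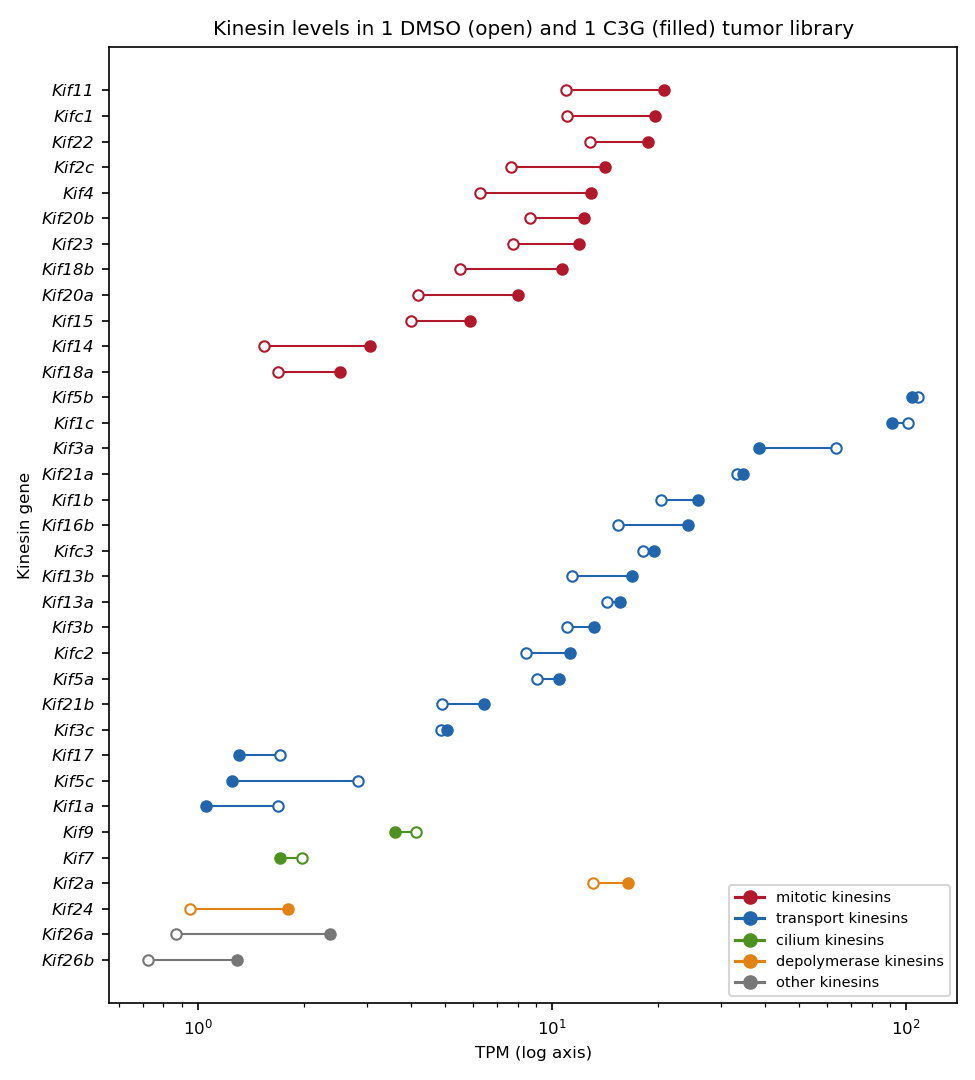
Level of each of the 35 kinesins with at least 1 TPM in either library, on a log axis in TPM; open circles are the DMSO library, filled circles the C3G library, and colors the functional classes. All 12 mitotic genes (red) lie farther right in the C3G library, whereas transport genes (blue) lie on either side.

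All 12 mitotic kinesins were higher in the C3G library, by 1.42-fold to 2.06-fold. Their median log2 ratio was 0.73, against 0.10 over the 17468 genes that averaged at least 1 TPM, among which 58.9% had a log2 ratio above 0. The counting interval lay above 1 for 12 of 12, against 34.4% of those genes. Their log2 ratios exceeded those of 75.4% to 94.98% of the same genes. None of the 12 reached a log2 ratio of 1 (by the rule that the higher TPM is at least 5, 3.10% of 12780 genes did), and Kif4 alone had a plain ratio above 2. At a log2 ratio corresponding to 1.5-fold the count was 6 of the 10 that met that TPM minimum, against 11.5% of genes that met it. Kif14 and Kif18a lay below the minimum. Kif20a is among the 6 and reached 5 TPM in the C3G library only.

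All 3 motors that build the bipolar spindle, Kif11, Kif15 and Kifc1, had counting intervals above 1. Kif11, the kinesin-5 motor (Eg5) that slides spindle microtubules apart and is the target of monastrol-type inhibitors, stood at 10.97 and 20.7 TPM (355 and 849 reads), a ratio of 1.89 (1.67 to 2.14). Kif15, a kinesin-12 motor that can take over from Kif11 in holding the spindle poles apart, stood at 3.998 and 5.88 TPM, a ratio of 1.47 (1.23 to 1.76). Kif11 was thus 2.75 times as abundant as Kif15 with DMSO and 3.52 times with C3G. Kifc1 (HSET), the minus-end motor that focuses spindle poles and clusters extra centrosomes, stood at 11.01 and 19.6 TPM, a ratio of 1.78 (1.48 to 2.16). These motors' intervals overlap, and the differences between them were not tested. The near-identical copy of Kifc1, Kifc5b, which the symbol rule leaves out, stood at 4.80 and 9.49 TPM, a ratio of 1.98 (1.51 to 2.61). How reads were split between these copies is uncertain, but both were higher in the C3G library.

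Chromosome-bound motors were also higher. Kif4, the chromokinesin that works on chromosome arms and later shortens the central spindle with Prc1, stood at 6.27 and 12.9 TPM; its ratio of 2.06 (1.70 to 2.50) was the highest among the mitotic genes. Kif22 (Kid), the chromokinesin that pushes chromosome arms toward the spindle equator, stood at 12.8 and 18.7 TPM, a ratio of 1.46 (1.26 to 1.70). Kif22 was the more abundant chromokinesin in both libraries, and Kif4 came to 0.490 of its level with DMSO and 0.688 with C3G.

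Motors that shorten or dampen microtubule ends were higher too. Kif2c (MCAK), the depolymerase that corrects faulty kinetochore attachments, stood at 7.67 and 14.1 TPM, a ratio of 1.84 (1.51 to 2.25). Kif18b, which keeps astral microtubules short, stood at 5.49 and 10.7 TPM, a ratio of 1.95 (1.51 to 2.54). Kif18a, which dampens chromosome oscillation at the metaphase plate, stood at 1.69 and 2.52 TPM on 72 and 136 reads, a ratio of 1.49 (1.11 to 2.01). At this depth the intervals of Kif18a and Kif18b overlap. Of the 11 mitotic genes with a window, Kif18a alone held no CHR letters. Kif15 and Kif20b, which held them, had plain ratios of 1.47 and 1.42. A link between the letters and the ratios was not tested.

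Motors of the central spindle and of cytokinesis completed the class. Kif20a (Mklp2), which brings the Aurora B complex to the central spindle, stood at 4.20 and 8.01 TPM, a ratio of 1.91 (1.46 to 2.51). Kif20b (Mphosph1), a related motor of late cytokinesis, stood at 8.69 and 12.3 TPM, with the lowest ratio of the class, 1.42 (1.22 to 1.66). Kif23 (Mklp1), which forms centralspindlin with Racgap1, stood at 7.77 and 11.9 TPM, a ratio of 1.54 (1.32 to 1.79). Its partner Racgap1 stood at 13.8 and 25.9 TPM, a ratio of 1.87 (1.67 to 2.10). Kif14, which recruits citron kinase to the midbody, was the least abundant of the class in the DMSO library, at 1.54 and 3.06 TPM on 69 and 174 reads, a ratio of 1.99 (1.497 to 2.67). Citron kinase itself, Cit, stood at 2.36 and 4.45 TPM, a ratio of 1.88 (1.57 to 2.27).

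Transport kinesins did not share a direction. Their median log2 ratio was 0.10, equal to 2 decimals to that of all genes, with 11 of 17 above 0 (against 58.9% of genes) and a range from -0.77 to 0.62. Counting intervals lay above 1 for 6 of 17 (against 34.4% of genes), a share near that of all genes, below 1 for 4 (against 18.3%) and held 1 for 7. None passed a log2 ratio of 1 in size in either direction, where 4.30% of genes did on the lower side. Of the 14 with a higher TPM of at least 5, 1 was higher at 1.5-fold (against 11.5% of genes) and 1 lower (against 9.15%). The mitotic median exceeded the transport median by 0.63 on the log2 scale. The classes overlapped at their edges: 2 of 17 transport genes, Kif16b and Kif13b, had a log2 ratio above the lowest mitotic gene, and 5 of 12 mitotic genes lay below Kif16b. With log2 ratios centred on the median of genes of at least 10 TPM, a shift of 0.12, the medians were 0.61 and -0.02, and the transport genes Kif3c, Kif13a, Kif21a and Kifc3 changed sign.

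**Figure D3:**
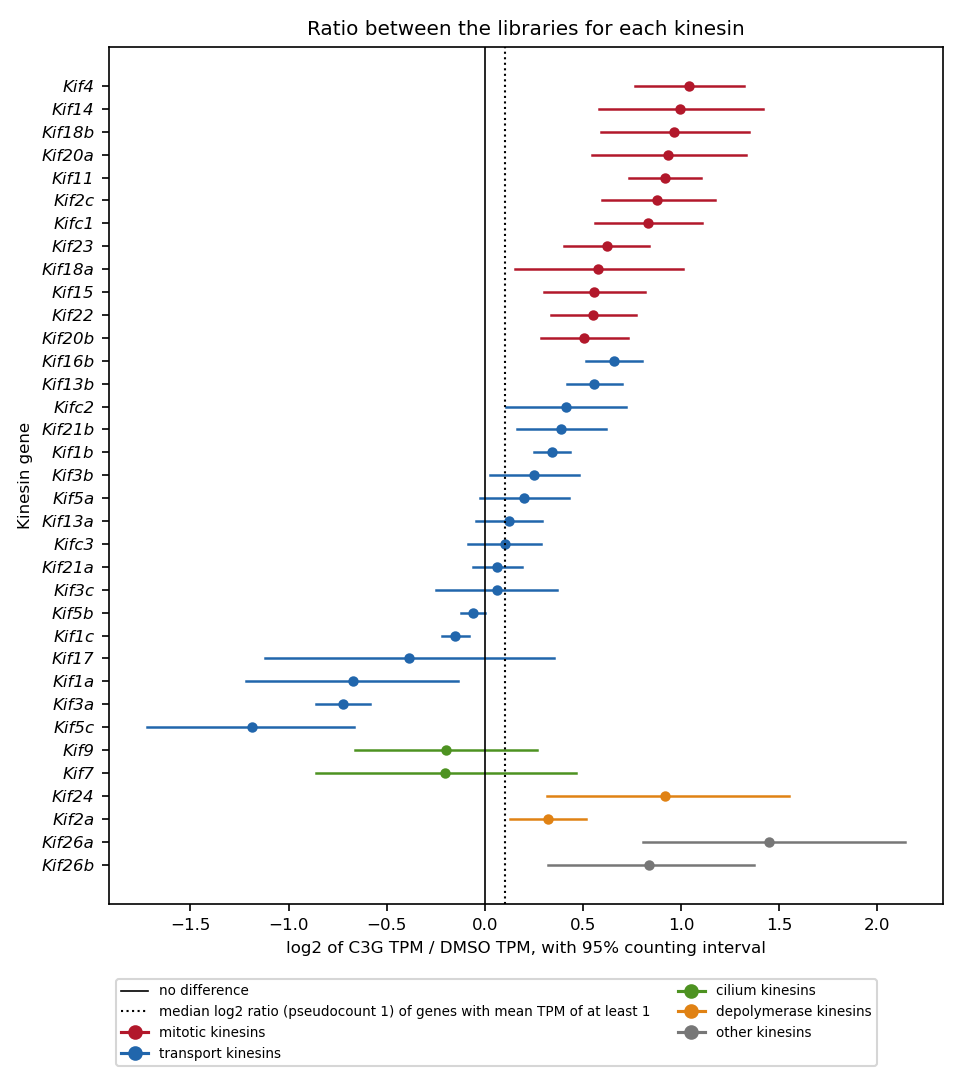
Log2 of the plain TPM ratio, C3G over DMSO, for the 35 kinesins with at least 1 TPM in either library; points are the ratios, bars the 95% counting intervals, the solid line no difference, and the dotted line the median log2 ratio over all genes. All 12 mitotic intervals lie above 0, and transport genes run from Kif16b at the higher end to Kif5c at the lower.

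Conventional kinesin (kinesin-1) consists of a heavy chain pair and light chains that bind cargo. Kif5b, its ubiquitous heavy chain, stood at 108 and 104 TPM, a ratio of 0.959 (0.918 to 1.00). Kif5a and Kif5c are the heavy chains best known from neurons. Kif5a stood at 9.11 and 10.5 TPM, a ratio of 1.15 (0.984 to 1.34). Kif5c was lower in the C3G library, at 2.84 and 1.25 TPM on 88 and 49 reads, 2.28-fold lower (1.59 to 3.30). Of the light chains, Klc2 stood at 13.9 and 9.29 TPM, 1.496-fold lower (1.24 to 1.81), whereas the intervals of Klc1, Klc3 and Klc4 held 1. Of the 5 neuron markers, Syt1 and Nefl were at 0 in both libraries. Snap25 and Nefm had 1 and 2 reads with DMSO and 0 with C3G. Rbfox3 had 4 reads with DMSO and 8 with C3G (0.159 and 0.250 TPM). The 5 markers summed to 0.272 and 0.250 TPM, too few reads to show a direction.

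Kif3a was the abundant transport motor with the largest difference. With Kif3b or Kif3c and the adaptor Kifap3 it forms heterotrimeric kinesin-2, which carries membrane cargo and builds cilia. Kif3a stood at 63.5 and 38.5 TPM (988 and 758 reads), 1.65-fold lower (1.501 to 1.82). Its partner Kif3b stood at 11.1 and 13.1 TPM, a ratio of 1.19 (1.02 to 1.39), and Kif3c at 4.86 and 5.06 TPM. Kifap3 stood at 26.7 and 34.2 TPM, a ratio of 1.28 (1.14 to 1.44). Transcripts of Kif3a were thus 5.75 times those of Kif3b with DMSO and 2.93 times with C3G. In GENCODE M21 no other gene overlaps Kif3a (chromosome 11, 53567379 to 53601967, mm10) on either strand. The homodimeric kinesin-2 gene Kif17 stood at 1.71 and 1.31 TPM on 34 and 33 reads, and its interval (0.460 to 1.27) held 1.

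Kinesin-3 motors, which carry vesicles and endosomes, stood on both sides. Kif16b, a carrier of early endosomes, was the transport kinesin with the highest ratio, at 15.3 and 24.2 TPM, 1.58-fold higher (1.43 to 1.74). Kif13b, known as a partner of Dlg1, stood at 11.4 and 16.8 TPM, a ratio of 1.47 (1.34 to 1.62). Its paralog Kif13a stood at 14.3 and 15.6 TPM, a ratio of 1.09 (0.968 to 1.22), and these intervals do not overlap. In TPM, Kif13a stood above Kif13b with DMSO and below it with C3G, and this order within a library was not tested. Kif1b, a carrier of mitochondria and synaptic vesicle precursors, stood at 20.3 and 25.8 TPM, a ratio of 1.27 (1.19 to 1.35). Kif1c stood at 102 and 91.5 TPM, 1.11-fold lower (1.06 to 1.16). The neuronal paralog Kif1a stood at 1.68 and 1.05 TPM on 68 and 54 reads, 1.60-fold lower (1.10 to 2.33).

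Kif21a and Kif21b are kinesin-4 motors that pause microtubule growth. Kif21a stood at 33.3 and 34.7 TPM, a ratio of 1.04 (0.958 to 1.14), and Kif21b at 4.90 and 6.42 TPM, a ratio of 1.31 (1.12 to 1.53). Kifc3, a minus-end motor of epithelial junctions, stood at 18.1 and 19.4 TPM, a ratio of 1.07 (0.943 to 1.22). Kifc2 stood at 8.45 and 11.2 TPM, a ratio of 1.33 (1.08 to 1.65), but it overlaps Cyhr1, and libraries of this kind do not mark strand.

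Kinesins of the cilium were few and low. Kif9, a motor of motile cilia, stood at 4.13 and 3.60 TPM, and Kif7, the ciliary regulator of Hedgehog signalling, at 1.96 and 1.71 TPM, both with intervals that held 1. Kif19a, which limits the length of motile cilia, had 17 reads with DMSO and 7 with C3G (0.964 and 0.313 TPM). Kif27 had 19 and 10 (0.840 and 0.349 TPM). Kif19a was 3.08-fold lower (1.21 to 8.78) and Kif27 2.41-fold lower (1.07 to 5.80), on these few reads. The 5 ciliated cell markers did not move together. Foxj1, the regulator of motile cilia, stood at 13.2 and 3.75 TPM, 3.52-fold lower (2.56 to 4.90). Rsph1 stood at 10.3 and 7.69 TPM and Ccdc39 at 3.32 and 4.23 TPM, both with intervals that held 1, while the cilium structure genes Tekt1 and Dnah5 were at 0 in both libraries. The 5 markers summed to 26.8 and 15.7 TPM. Their part in the levels of Kif19a, Kif27 and Kif3a was not tested.

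Among the depolymerases outside the mitotic list, Kif2a, which also acts on spindle poles and in neurons, stood at 13.1 and 16.4 TPM, a ratio of 1.25 (1.09 to 1.43). Kif24, a depolymerase of the mother centriole, stood at 0.950 and 1.79 TPM on 33 and 79 reads, a ratio of 1.89 (1.24 to 2.93). The kinesin-11 genes Kif26a and Kif26b encode atypical kinesins that bind microtubules without using ATP. Kif26a stood at 0.867 and 2.37 TPM on 26 and 90 reads, with a ratio of 2.73 (1.75 to 4.40), the highest among kinesins with reads in both libraries. Kif26b stood at 0.722 and 1.29 TPM on 46 and 104 reads, a ratio of 1.78 (1.25 to 2.58).

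Genes that work with the mitotic kinesins were also higher in the C3G library. The log2 ratio was above 0 for all 17 partner genes (against 58.9% of genes). Their median was 0.70, with a range from 0.30 to 1.32. Of the 16 with a higher TPM of at least 5, 3 passed a log2 ratio of 1 (against 3.10% of genes): Ccnb1, Ect2 and Plk1. Ect2, the exchange factor that centralspindlin recruits for furrowing, stood at 4.97 and 13.2 TPM, a ratio of 2.67 (2.16 to 3.31). Prc1, the microtubule bundler that loads Kif4, stood at 4.71 and 9.62 TPM, a ratio of 2.04 (1.71 to 2.46), close to that of Kif4. Tpx2, which binds Kif11 and Kif15, stood at 26.8 and 43.3 TPM, a ratio of 1.62 (1.46 to 1.80). Cenpe, a kinetochore kinesin whose symbol falls outside the rule, stood at 10.4 and 15.9 TPM, a ratio of 1.53 (1.35 to 1.73).

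All 12 proliferation genes were above 0 as well, and their median was 0.63, with a range from 0.46 to 1.25. Of the 12, 3 passed a log2 ratio of 1 (against 3.10% of genes): Mcm5, Cdc20 and Ccna2. Their ratios were 2.46 (2.15 to 2.82), 2.34 (2.07 to 2.64) and 2.31 (2.08 to 2.56), in that order. The proliferation antigen gene Mki67 stood at 56.8 and 108 TPM, a ratio of 1.90 (1.82 to 1.99). Its ratio lay inside the counting interval of 8 of the 12 mitotic kinesins and above the interval of the other 4. Relative to Mki67, Kif11 stood at 0.193 with DMSO and 0.192 with C3G. No other gene of the proliferation list was compared with the kinesins in these ways. Of 11 regulators of late cell cycle genes, 9 were above 0 (against 58.9% of genes), with a median of 0.54. Foxm1, an activator of such genes, stood at 8.18 and 16.4 TPM, a ratio of 2.00 (1.70 to 2.36), and Mybl2 at 4.68 and 8.49 TPM, a ratio of 1.81 (1.42 to 2.34). Cdkn1a, a cell cycle inhibitor gene, stood at 39.8 and 23.0 TPM, 1.73-fold lower (1.53 to 1.95).

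Lists of kinesin light chains and adaptors, of dynein and dynactin and of tubulins had lower medians than the mitotic partners. Dynein, dynactin and tubulins are not specific to the transport kinesins. Light chains and adaptors had a median log2 ratio of 0.27 (11 of 15 above 0), cytoplasmic dynein and dynactin 0.08 (14 of 19) and tubulins -0.10 (4 of 10). Of all genes averaging at least 1 TPM, 58.9% were above 0, and their median was 0.10. For light chains and adaptors the counting interval lay above 1 for 8 of 15 (against 34.4% of genes) and below 1 for 3 (against 18.3%). For dynein and dynactin it lay above 1 for 8 of 19 and below 1 for 4, and for tubulins above 1 for 3 of 10 and below 1 for 3. At 1.5-fold, 2 of the 15 light chain and adaptor genes were higher, a share near the 11.5% of all genes: Trak2, a mitochondrial adaptor, at 17.5 and 27.6 TPM, and the scaffold Mapk8ip1 at 24.2 and 37.1 TPM. The dynein light chain gene Dynll2 stood at 140 and 234 TPM, a ratio of 1.67 (1.58 to 1.78). Tuba1b, the alpha-tubulin gene with the largest ratio, stood at 246 and 388 TPM, a ratio of 1.58 (1.49 to 1.66).

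**Figure D4:**
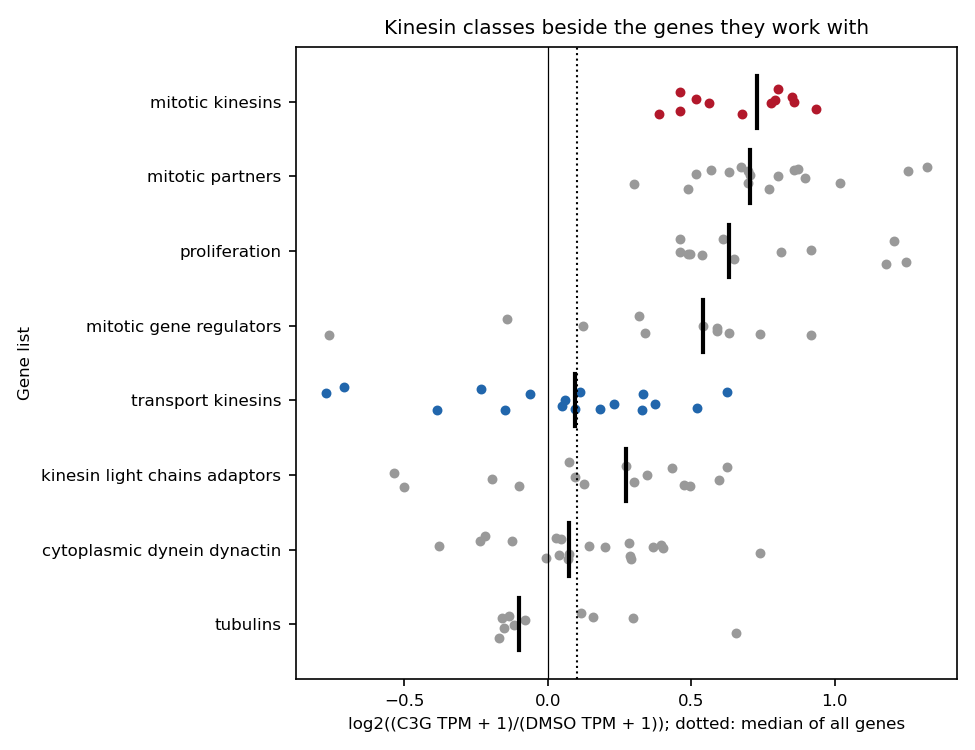
Log2 ratio (pseudocount 1) of each gene that averaged at least 1 TPM in the mitotic and transport kinesin classes and in 6 lists of genes they work with; black bars are list medians, the solid line no difference and the dotted line the median of all genes. Mitotic kinesins, mitotic partners and proliferation genes lie wholly above 0, and the genes of each other list lie on both sides of the median of all genes.

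Summed levels of several lists of cell type markers differed between the libraries, and others were similar. The 7 adipocyte markers summed to 181 and 988 TPM, with all 7 higher in the C3G library, and the 5 endothelial markers to 21.2 and 62.5 TPM, all 5 higher. The 5 T cell markers summed to 19.2 and 4.99 TPM, all 5 lower, and the 5 myoepithelial markers to 1033 and 513 TPM, with 4 of 5 lower and Krt5 higher. The 5 luminal markers summed to 7229 and 5169 TPM, all 5 lower. No marker of these 5 lists was at 0. Macrophage markers summed to 149 and 154 TPM, and Schwann cell markers, mostly Sox10, to 435 and 440 TPM. Fibroblast markers summed to 1176.7 and 906.5 TPM, with 2 higher and 3 lower. B cell markers were low, at 3.53 and 2.18 TPM, as were skeletal muscle markers, at 1.36 and 1.24 TPM. The part of the marker differences in the kinesin levels was not tested. Longer genes had higher log2 ratios across the libraries, with medians from -0.20 in the shortest eighth to 0.21 in the longest eighth, among genes averaging at least 5 TPM. With trends on length and GC content removed, the mitotic median was 0.64 and the transport median 0.06, and all 12 mitotic genes stayed above 0. Of the 12 mitotic kinesins, 8 overlap an annotated gene with at least 1 TPM, such as Cdc23 beside Kif20a and Pdzd11 beside Kif4, and reads from overlapping genes could not be told apart by strand.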

How the data were processed

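RNA came from RNeasy Plus columns and the libraries from version 2 of the TruSeq RNA kit, per the labels' protocols; that kit does not mark strand. Per the submitters' processing notes, FastQC, MultiQC, Trimmomatic 0.38 and featureCounts 2.0.0 were used with build mm10; the aligner is not given in the sources used here. The authors deposited TPM values, which sum to 1000000 per library. All 55536 identifiers matched GENCODE M21. TPM times exon length was a whole multiple of 1 step for 100% of values above 0, within 0.01 of a step, and 1 step was taken as 1 read. These reads gave the exact conditional 95% intervals (scipy 1.17.1), which cover counting error alone, since PCR copies were not marked by molecular identifiers. No count test was run.

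Medians used genes averaging at least 1 TPM, and counts by size a higher TPM of at least 5. Every kinesin is accounted for, with both TPM values where the higher was at least 1. For other lists, the plan was to name up to 4 genes with the largest log2 ratio and a higher TPM of at least 5. Not all of these were named, and some are covered only by the counts and sums of their list. Partners and markers beyond these were named after their values were seen. The kinesins and lists were chosen with earlier results of these data known. The procedure was tested on simulated data. Alternatives were pseudocounts of 0.1 and 5, no or a stricter TPM filter, a minimum of 50 reads, centring, rescaling, removal of length and GC trends (statsmodels 0.14.6) and wider or narrower lists. Promoters came from RefSeq (GRCm38.p6); no protein sequence was used here.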

Additional observations from a re-analysis of the deposited data

How the results depend on the processing

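The mitotic median log2 ratio stayed between 0.46 (pseudocount 5) and 0.85 (pseudocount 0.1), and all 12 mitotic genes kept log2 ratios above 0 under every pseudocount, centring, rescaling and trend alternative run. The transport median changed sign only with centring, to -0.024. With a pseudocount of 0.1, 1 mitotic kinesin passed a log2 ratio of 1, in place of 0. With the stricter filter of 20 TPM, 1 mitotic kinesin passed 1.5-fold in place of 6, because fewer genes reach that level. The transport count higher at 1.5-fold went from 1 to 0 with a pseudocount of 5, with centring and with length and GC trends removed. The transport count lower at 1.5-fold was 2 with no filter on low values and 0 without the kinesin-2 genes. Centring moved 3 of 35 members by more than the distance from the middle to an end of their log2 counting interval. Trend removal moved 1 by more than that. Adding Kif2a and Kif24 to the mitotic list gave a median of 0.62. Leaving out Kifc1 gave 0.68, and summing it with Kifc5b gave 0.74; these last 2 settings were chosen after seeing the data. Depth limits genes such as Kif19a and Kif27, with fewer than 20 reads in each library. No paired analysis was possible because each group held 1 library.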
